A study of Mus musculus with 6 samples.

Results

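Vwf, Selp and 8 other genes of the platelet (megakaryocyte) and neighbouring erythroid lineages were followed through sorted hematopoietic stem cells (HSCs) that did or did not carry a deletion of Med23, a subunit of the Mediator complex that links transcription factors to RNA polymerase II. The 10 genes, of 34745 in the deposited tables, were found by gene symbol, and all 10 were present. They were Vwf, Pf4, Clu, Gp1bb, Gp9, Gp5, Selp, Icam4, Rgs18 and Slc14a1. The genes were chosen with the KO and WT values of these same libraries known, so their differences between groups are given as a description. No p-value is given for any of them, and how many passed the fits across all genes is stated only beside the share of all genes that passed.

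The study sequenced bulk RNA from 3 WT and 3 KO samples of adult C57BL/6 bone marrow HSCs, sorted as LSK CD150+CD34-CD48- cells, to ask how loss of Med23 alters their transcriptome. WT mice had the genotype Med23floxp/flowp (spelled as in the labels) without Cre, and KO mice were Mx1-cre;Med23floxp/flowp, so both groups carried the floxed alleles. Mx1-cre is switched on by interferon, which poly(I:C) injections induced, and it acts in many cell types of the marrow and elsewhere, so the deletion was not limited to HSCs. The labels do not say whether each library came from a separate mouse, so p-values measure only the spread between these samples, which may be technical in part. For its blood counts the paper examined both WT and KO mice after poly(I:C). Its methods for bulk RNA do not state whether WT mice were injected or the time since injection. No ages were given beyond adult.

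Megakaryocytes, the parents of platelets, and red cells arise from a shared progenitor. A share of HSCs already carries transcripts of platelet genes, and Vwf is the gene best known for marking such platelet-primed stem cells. On platelets, von Willebrand factor holds the cell to an injured vessel wall through the GPIb-IX-V receptor, P-selectin moves from granules to the surface on activation, and PF4 is released. Several of these genes are also active in endothelial cells, and 2 of those described here, Icam4 and Slc14a1, encode red cell surface proteins.

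Library totals ran from 3537269 counts (WT replicate 3) to 8131344 counts (WT replicate 2). Counts were scaled by library size and TMM factors to normalised CPM, the unit of expression used here, and 3 counts, taken as the detection floor, came to 0.369 to 0.927 CPM. Normalised Med23 levels were 47.6, 70.8 and 24.1 CPM in the WT group and 31.6, 29.8 and 36.8 CPM in the KO group, each in the order of replicates 1, 2 and 3, a log2 fold change of -0.54 ± 0.41 (SE, n = 3 per group; edgeR adjusted p = 0.99). For the deleted gene, the library labelled WT replicate 3 had the lowest level of the 6. Gene-level counts do not separate the floxed exon from the rest of Med23, and values without this library are given where they differ in sign. Replicate 3 of both groups lacked Y-linked transcripts (1 and 0 counts, against at least 1036 in each other library), so sex changed with replicate number and not with genotype. In each group replicate 3 thus came from another animal than replicates 1 and 2, which may or may not share one.

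Across all genes, edgeR's quasi-likelihood test called 9 of 12513 tested genes at an adjusted p under 0.05, which is 0.0719% (2 higher and 7 lower in KO). All 10 platelet-lineage genes passed the filter on low counts, and 0 of the 10 were called. At an unadjusted p under 0.05, 715 genes (5.71%) passed. DESeq2 called 120 of 12500 genes (0.96%), and 3 of the 10 were among them: Selp, Rgs18 and Slc14a1, each higher in KO. Every KO library was above every WT library for 4 of the 10 genes (Selp, Rgs18, Slc14a1 and Gp9), a pattern that 6.25% of all tested genes showed. Every KO library was below every WT library for 2 of them (Vwf and Icam4), against 6.15% of all tested genes, and the libraries overlapped for the other 4. The 10 genes had been chosen on this contrast, so nothing is read from these shares. Estimates were positive for 5 genes and negative for 5, from -2.06 to 1.21, with a median log2 fold change of 0.11 beside -0.0054 over all tested genes. In bulk RNA, fewer cells that express a gene and less of its RNA per cell cannot be told apart.

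**Figure D1:**
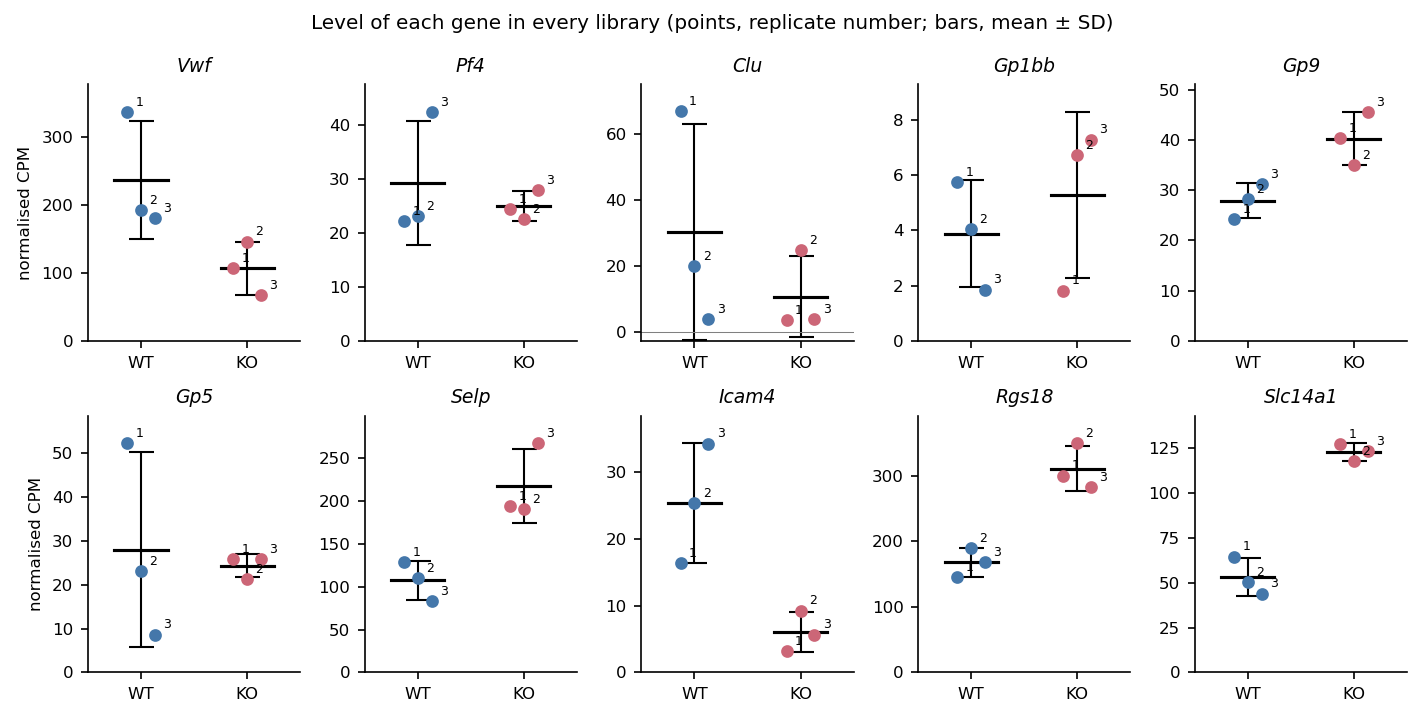
Normalised CPM (vertical axes, linear, one scale per gene) of the 10 genes in the 3 WT and 3 KO libraries; points are libraries with their replicate number, and bars are the mean ± SD. The KO libraries sit above all WT libraries for Selp, Rgs18, Slc14a1 and Gp9 and below all of them for Vwf and Icam4.

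Among the ligands and secreted proteins, Vwf (ENSMUSG00000001930, plus strand of chr6:125546774-125686679, GRCm38), which encodes the multimeric factor that tethers platelets to collagen, was covered by 1642, 1568 and 586 reads in the WT group (replicates 1, 2 and 3, an order kept throughout) and by 527, 802 and 335 in the KO group. In normalised CPM the WT libraries were at 337, 193 and 181 and the KO libraries at 107, 146 and 67.8. The highest KO library (replicate 2) was below the lowest WT library (replicate 3), and WT replicate 1 stood well above the other 5. The means were 237 ± 86.7 CPM in WT and 107 ± 39.1 CPM in KO (SD, n = 3), 2.22-fold lower in KO, with a log2 fold change of -1.15 ± 0.33 (SE). Without WT replicate 1 the estimate was -0.80, the smallest in size with any library left out, and without KO replicate 2 it was -1.44, the greatest. All 14 alternative settings gave a negative value.

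Since Vwf and Selp are also endothelial genes, 12 endothelial markers were read beside them. Their summed level was 751 to 787 CPM in WT and 624 to 713 CPM in KO, and 8 of 12 lay above the floor in each group. Most of it came from Tie1 (358 to 473 CPM in WT, 421 to 476 in KO) and Egfl7 (217 to 267 CPM in WT, 140 to 212 in KO), which HSCs also express. Egfl7 was lower in every KO library than in any WT library (log2 fold change -0.47 ± 0.23, edgeR adjusted p = 0.91), and Tie1 overlapped. Of the defining markers, Sele was at 0 in every library, Cdh5 was at 0 in WT and at 0, 2 and 33 counts in KO, and Mmrn2 was at 0 in WT with 1 count in KO. Cldn5 had 54, 90 and 34 counts in WT and 0 in each KO library, where Vwf was lower too. Robo4 had 193, 667 and 372 counts in WT and 242, 283 and 314 in KO, and its normalised levels overlapped. Kdr had 14, 88 and 0 counts in WT and 17, 0 and 16 in KO, and Plvap had 1, 30 and 16 in WT and 11, 1 and 27 in KO. Flt1, Stab2 and Ptprb had at most 19, 25 and 14 counts in any library. The part of these endothelial genes in the Vwf and Selp values was not tested.

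Pf4 (ENSMUSG00000029373, plus strand of chr5:90772435-90773383) encodes the chemokine platelet factor 4 of alpha granules. It was at 22.1, 23.1 and 42.3 normalised CPM in WT and at 24.3, 22.6 and 27.9 in KO, from 108 to 188 counts per library. WT replicate 3 alone stood high, and the other 5 libraries lay between 22.1 and 27.9 CPM, so the groups overlapped. The log2 fold change of -0.22 ± 0.41 turned to 0.14 without WT replicate 3.

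Clu (ENSMUSG00000022037, plus strand of chr14:65968483-65981547), which encodes the secreted chaperone clusterin, was the most uneven of the 10. Its normalised CPM were 67.0, 20.2 and 4.02 in WT and 3.65, 24.9 and 4.05 in KO, that is 327, 164 and 13 counts against 18, 137 and 20. The highest WT library was 16.7-fold above the lowest, and the highest KO library 6.84-fold above the lowest. WT replicate 3 was at the level of 2 of the KO libraries, and the groups overlapped. The log2 fold change was -1.48 ± 0.97, between -2.98 without KO replicate 2 and -0.17 without WT replicate 1, so the size of the Clu difference rested on single libraries.

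The GPIb-IX-V complex, the platelet receptor for von Willebrand factor, is built from the products of Gp1ba, Gp1bb, Gp9 and Gp5. Its chains did not share one pattern in these libraries, with Gp9 apart between the groups and Gp1bb and Gp5 overlapping. Gp9 (ENSMUSG00000030054, plus strand of chr6:87778072-87779768) was at 24.2, 28.3 and 31.2 normalised CPM in WT and at 40.3, 34.9 and 45.5 in KO. Every KO library was above every WT library, by a narrow margin between KO replicate 2 and WT replicate 3. The means were 27.9 ± 3.53 and 40.3 ± 5.29 CPM (SD, n = 3), 1.44-fold higher in KO, with a log2 fold change of 0.53 ± 0.34 that stayed between 0.44 and 0.62 with any library left out.

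Gp5 (ENSMUSG00000047953, minus strand of chr16:30307685-30310779) was at 52.3, 23.1 and 8.65 normalised CPM in WT and at 25.9, 21.3 and 25.9 in KO. The 3 KO libraries lay close together, inside a WT range whose highest library was 6.04-fold above its lowest. The log2 fold change of -0.21 ± 0.57 became 0.60 without WT replicate 1 and -0.62 without WT replicate 3, so no direction held for Gp5. The within-library ratio of Gp9 to Gp5 counts, which needs no scaling, ran from 0.463 to 3.61 in WT and from 1.55 to 1.76 in KO.

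Gp1bb (ENSMUSG00000050761, minus strand of chr16:18620317-18622403) was the least counted of the 10, with 28, 33 and 6 counts in WT and 9, 37 and 36 in KO. In normalised CPM it was at 5.74, 4.06 and 1.85 in WT and at 1.82, 6.73 and 7.28 in KO, with both groups holding a library below 2 CPM. The log2 fold change was 0.43 ± 0.96. In GENCODE M21, 91.1% of its exonic bases (1902 of 2087) are shared on the same strand with Sept5, a neighbouring septin gene at 1, 8 and 4 counts in WT and 19, 4 and 74 in KO. Reads in the shared bases may have been dropped or split by the counting, so the Gp1bb level is uncertain.

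Gp1ba, the chain that binds von Willebrand factor and one of the related genes counted further on, was at 7.38, 14.1 and 22.3 normalised CPM in WT and at 29.2, 33.7 and 29.9 in KO. Every KO library was above every WT library, and the log2 fold change was 1.09 ± 0.48 (edgeR adjusted p = 0.86), which did not pass the threshold.

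The sequence before the start of Gp9 and Gp5 is shown to set an apart chain beside an overlapping one, with that of Selp, the adhesion gene described next. RefSeq windows (GRCm38.p6, 250 bases before to 50 after the start) were used for 6 of the 10 genes. The 250 bases before the start are printed 5′ to 3′ on the gene's strand. Capitals mark short motif matches, searched on both strands. For GATA factors the letters searched were GATAA. Those for ETS factors, a large family of activators, were GGAAG. Those for RUNX factors were TGTGGT, and a match on the opposite strand appears as the reverse complement. The windows are Gp9, plus strand of chr6:87777820-87778069, Gp5, minus strand of chr16:30310782-30311031, and Selp, plus strand of chr1:164115014-164115263.
Gp9: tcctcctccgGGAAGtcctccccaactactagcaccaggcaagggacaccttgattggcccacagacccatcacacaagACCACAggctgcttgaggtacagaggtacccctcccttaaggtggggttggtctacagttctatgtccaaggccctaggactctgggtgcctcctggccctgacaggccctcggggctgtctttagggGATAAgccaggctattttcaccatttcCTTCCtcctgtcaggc
Gp5: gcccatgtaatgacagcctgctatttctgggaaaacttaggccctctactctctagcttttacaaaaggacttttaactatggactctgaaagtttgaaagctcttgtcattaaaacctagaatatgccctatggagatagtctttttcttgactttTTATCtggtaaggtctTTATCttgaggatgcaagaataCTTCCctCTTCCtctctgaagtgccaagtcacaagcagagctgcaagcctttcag
Selp: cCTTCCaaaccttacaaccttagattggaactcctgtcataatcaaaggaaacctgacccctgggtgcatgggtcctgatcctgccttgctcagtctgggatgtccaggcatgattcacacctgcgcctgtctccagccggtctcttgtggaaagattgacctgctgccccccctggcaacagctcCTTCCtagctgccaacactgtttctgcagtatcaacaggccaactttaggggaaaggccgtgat
In the printed Gp9 window the GATA match spanned positions -43 to -39 from the start, 2 ETS matches spanned -240 to -236 and -16 to -12, and the RUNX match spanned -171 to -166. Gp5 held 2 GATA matches, at -93 to -89 and -77 to -73, and 2 ETS matches, at -55 to -51 and -48 to -44. Selp held no GATA match, and its ETS matches were at -249 to -245, at -64 to -60 and, after the start, at 21 to 25. No 2 of the matches overlapped in these windows.

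Over the full windows of the 6 genes, a GATA match was present in Pf4, Gp9, Gp5 and Icam4 and an ETS match in Pf4, Gp1bb, Gp9, Gp5 and Selp. Of 32841 RefSeq windows of that length, 25.4% held the GATA letters, 71.4% the ETS letters, 16.8% the RUNX letters and 17.2% both GATA and ETS letters. Gp9, Gp5 and Pf4 held both kinds. Neither Icam4, lower in KO, nor Selp, higher in KO, held both. A match is a description of letters and not a binding site.

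**Figure D2:**
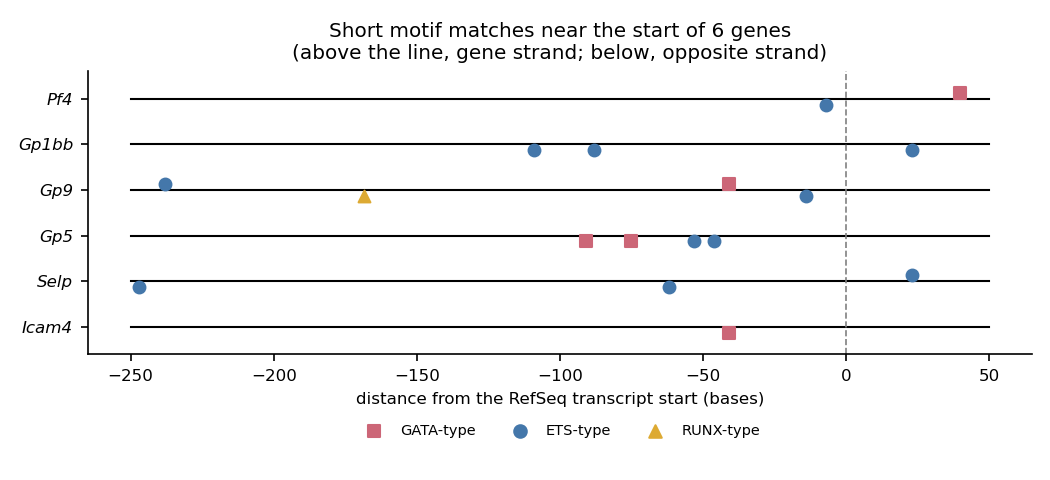
Positions of the short motif matches (squares GATA-type, circles ETS-type, triangle RUNX-type) against distance from the RefSeq transcript start in bases, for the 6 genes whose window was used. Marks above a line are on the gene's strand and marks below on the opposite strand. Gp5 holds 2 GATA-type matches, Selp and Gp1bb hold 3 ETS-type matches each, and Icam4 holds a single GATA-type match.

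Of the adhesion proteins, Selp (ENSMUSG00000026580, plus strand of chr1:164115264-164150026) encodes P-selectin, which binds PSGL-1 on leukocytes. It had 628, 896 and 270 counts in WT and 957, 1048 and 1321 counts in KO. In normalised CPM the WT libraries were at 129, 110.1 and 83.4 and the KO libraries at 194, 190.7 and 267. Every KO library was above every WT library, with KO replicate 3 highest and WT replicate 3 lowest of the 6. The means were 107 ± 22.8 CPM in WT and 217 ± 43.3 CPM in KO (SD, n = 3), 2.02-fold higher in KO, with a log2 fold change of 1.01 ± 0.25 and a range of 0.84 to 1.17 with any library left out. Because both ends of the range were replicate 3, the log2 ratio was 1.68 between the replicate 3 libraries and 0.69 between the means of replicates 1 and 2.

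The antisense genes Gm16587 and Gm16548 share 4.21% and 9.93% of the Selp exonic bases and had at most 19 and 13 counts in any library, and no strand setting is given in the sources used here. The partner of P-selectin, Selplg, was at 282, 281 and 306 normalised CPM in WT and at 321, 322 and 325 in KO, a log2 fold change of 0.16 ± 0.18. Its KO libraries were all above its WT libraries. Sele, the gene of E-selectin, was at 0 in all 6 libraries.

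Icam4 (ENSMUSG00000001014, plus strand of chr9:21029373-21030595) encodes a red cell adhesion glycoprotein of the ICAM family. It had 80, 207 and 111 counts in WT and 16, 51 and 28 in KO, which are 16.4, 25.4 and 34.3 normalised CPM in WT and 3.24, 9.28 and 5.67 in KO. The highest KO library (replicate 2) was below the lowest WT library (replicate 1). The means were 25.4 ± 8.95 and 6.06 ± 3.04 CPM (SD, n = 3), 4.16-fold lower in KO, with a log2 fold change of -2.06 ± 0.58, the furthest from 0 of the 10 genes. It stayed between -2.50 and -1.75 with any library left out.

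Icam4 lies between Icam1 and Icam5 on chr9, and its exonic bases fall wholly (100%) within exons of the antisense gene Gm47079, so reads from the opposite strand may be counted to it. Icam1 overlapped between the groups (90.4, 80.7 and 90.2 normalised CPM in WT and 109, 76.6 and 91.3 in KO, log2 fold change 0.08 ± 0.25). Icam5 had 0, 18 and 8 counts in WT and 0 in each KO library, too few for the filter.

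The last 2 genes act inside the cell or in its membrane. Rgs18 (ENSMUSG00000026357, minus strand of chr1:144752683-144775435) encodes a regulator of G protein signalling that restrains platelet activation. Its normalised CPM were 146, 190.2 and 168 in WT and 301, 349.6 and 283 in KO. Every KO library was above every WT library, and the groups were far apart against their spread, at 168 ± 22.2 and 311 ± 34.5 CPM (SD, n = 3). Rgs18 was 1.85-fold higher in KO, with a log2 fold change of 0.89 ± 0.20 that stayed between 0.80 and 0.99 with any library left out. The relatives Rgs1 and Rgs19 were also apart, Rgs1 below in KO (-1.31 ± 0.43, edgeR adjusted p = 0.62) and Rgs19 above (0.45 ± 0.23, edgeR adjusted p = 0.93).

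Slc14a1 (ENSMUSG00000059336, minus strand of chr18:78100091-78142119) encodes the urea transporter of red cells. It had 315, 411 and 142 counts in WT and 629, 648 and 610 in KO, which are 64.6, 50.5 and 43.9 normalised CPM in WT and 127, 118 and 123 in KO. The KO libraries agreed within 1.08-fold, and each was well above the highest WT library (replicate 1). The means were 53.0 ± 10.6 and 123 ± 4.77 CPM (SD, n = 3), 2.32-fold higher in KO, with a log2 fold change of 1.21 ± 0.26 and a range of 1.1 to 1.38 with any library left out. The 2 red cell genes among the 10 thus differed in opposite directions, Slc14a1 upward and Icam4 downward.

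**Figure D3:**
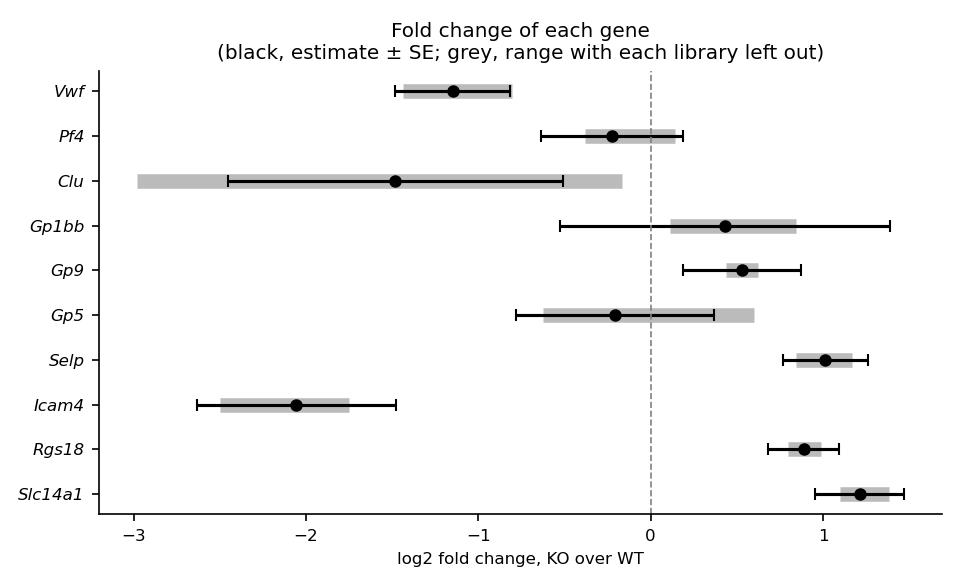
Log2 fold change of KO over WT for the 10 genes (horizontal axis); points and thin bars are the edgeR estimate ± SE from 3 libraries per group, and grey bars span the estimates with each library left out in turn. Gp5 and Pf4 cross 0 when a library is left out, while Selp, Rgs18, Slc14a1 and Gp9 stay above 0 and Vwf, Icam4 and Clu stay below it.

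Ratios of counts within a library need no scaling. Those of Selp and Rgs18 to Vwf and of Slc14a1 to Icam4 set a gene that was above in KO over one that was below, so their separation follows from the values already given and only its size is added. The ratio of Selp to Vwf was 0.382, 0.571 and 0.461 in WT and 1.82, 1.31 and 3.94 in KO, so Selp was below Vwf in counts in every WT library and above it in every KO library. The ratio of Rgs18 to Vwf ran from 0.433 to 0.987 in WT and from 2.40 to 4.18 in KO. The ratio of Slc14a1 to Icam4 ran from 1.28 to 3.94 in WT and from 12.7 to 39.3 in KO. The ratio of Pf4 to Gp9, where Pf4 alone overlapped, was also apart at 0.817 to 1.36 in WT and 0.603 to 0.646 in KO. These ratios compare the same gene pair between libraries and are not levels per length.

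Levels were compared between genes in FPKM, which divide by gene length. In WT the mean FPKM were 81.1 ± 11.0 for Rgs18, 30.9 ± 2.35 for Gp9, 27.1 ± 8.06 for Icam4, 20.7 ± 6.72 for Pf4 and 17.4 ± 4.60 for Selp (SD, n = 3). They were 12.9 ± 10.6 for Gp5, 11.8 ± 4.89 for Vwf, 10.5 ± 2.63 for Slc14a1, 5.48 ± 6.00 for Clu and 1.56 ± 0.84 for Gp1bb. Only Rgs18 stood apart from its neighbour in this order, and every pair of neighbours from Gp9 downward overlapped.

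In KO the order of mean FPKM was Rgs18 (155.6 ± 22.5), Gp9 (46.2 ± 4.39), Selp (35.8 ± 5.44), Slc14a1 (24.9 ± 1.37), Pf4 (18.5 ± 1.25), Gp5 (11.2 ± 1.08), Icam4 (6.79 ± 3.53), Vwf (5.51 ± 2.18), Gp1bb (2.13 ± 1.19) and Clu (1.99 ± 2.26). Selp moved from rank 5 to 3 and Slc14a1 from rank 8 to 4, while Icam4 moved from rank 3 to 7. The neighbours that did not overlap were Rgs18 and Gp9, Selp and Slc14a1, Slc14a1 and Pf4, Pf4 and Gp5, and Vwf and Gp1bb. Vwf, although it marks platelet-primed HSCs, ranked 7 in WT and 8 in KO by these FPKM, a rank that depends on the length used. The lengths behind the deposited FPKM exceeded the GENCODE M21 exonic length for 6 genes, by the largest ratio for Pf4 (1359 against 721 bases). Vwf was also among them (19829 against 16064 bases). With the M21 length Pf4 ranked 2 in WT, and Vwf ranked 6 in WT and 7 in KO. With that length, 3 of 10 ranks held in WT and 2 of 10 in KO.

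**Figure D4:**
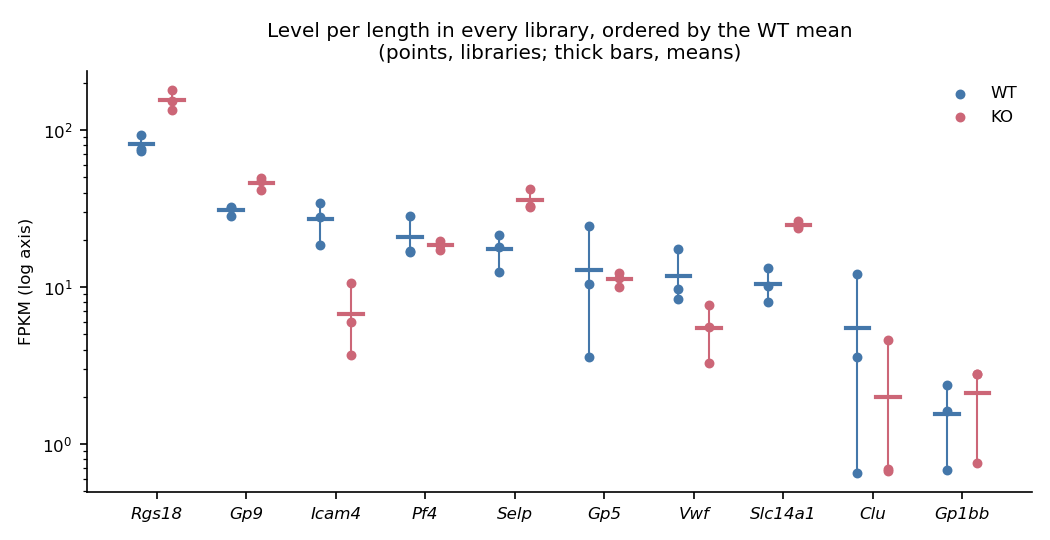
FPKM (vertical log axis) of the 10 genes in the 3 WT and 3 KO libraries, ordered by the WT mean; points are libraries, thin lines the range and thick bars the mean. Rgs18 is highest in both groups, Icam4 and Vwf are lower in KO, and Selp and Slc14a1 are higher in KO than in WT.

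The genes whose profile over the 6 libraries was most like that of 5 of the 10 were found by the root mean square difference of centred log2 CPM, a measure of 0 for identical profiles, among 10136 genes with a mean of at least 50 counts. For Vwf they were Sema7a (0.177), Dhrs13 (0.18) and D630039A03Rik (0.212). For Selp they included Adal (0.113) and Snx32 (0.138). None of these 5 was on the lineage lists.

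For Rgs18 the nearest were Ep300 (0.0981), Tmem71 (0.105) and Tsc22d1 (0.126), and for Slc14a1 they were Gpr4 (0.0672), Gipc3 (0.0821) and Plscr1 (0.178). Icam4 had the least alike neighbours, Trib3 (0.188), Prkcdbp (0.359) and Kdelc2 (0.375). Between the 10 genes, Selp and Slc14a1 were closest (0.197), followed by Gp9 and Rgs18 (0.285) and by Rgs18 and Slc14a1 (0.323). Vwf was no closer than 0.829 to any of the others. These profiles include the difference between WT and KO that was known when the 10 genes were chosen. Genes that differed in the same direction thus tend to lie closer, and nothing more is read from these distances.

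To place the 10 genes in their lineage, 72 other platelet-lineage genes were read from lists of receptors, granule proteins, signalling proteins, cytoskeleton and transcription factors. All 72 were in the tables, 63 were tested, 0 were called by edgeR or DESeq2, and 12 were higher and 2 lower at an unadjusted p under 0.05, which 5.71% of all tested genes passed in either direction. Their median log2 fold change was 0.24, with 44 estimates above 0 and 19 below, and every KO library was above WT for 12 genes and below it for 5, against 6.25% and 6.15% of all tested genes. The lists were chosen with earlier results of these data known, so nothing is read from these counts or those of each list below. Gp6, Clec1b, Cd226, the G6b gene and Myl9 were at 0 in every library.

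Among 10 tested receptors the median was 0.27, and 4 genes were apart, all above WT, a pattern that 6.25% of all tested genes showed. Besides Gp1ba these were Itgb3, the beta chain of the fibrinogen receptor (0.73 ± 0.40), the SLAM receptor Cd84 (0.33 ± 0.23) and Pear1 (0.14 ± 0.18). Itga2b, the alpha chain that pairs with Itgb3, overlapped, at 166, 76.3 and 106 normalised CPM in WT and 259, 163 and 207 in KO (0.85 ± 0.31, edgeR adjusted p = 0.71). Cd9, the most abundant with Pear1, also overlapped (0.18 ± 0.21).

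Among 12 tested granule genes the median was 0.0013. Ppbp, the neighbour of Pf4 on chr5 and like it a platelet chemokine, had 9, 82 and 1 counts in WT and 82, 192 and 77 in KO, with every KO library above WT in normalised CPM (log2 fold change 2.39 ± 0.93, edgeR adjusted p = 0.77). Nbeal2, needed for alpha granules, was also apart above WT (0.55 ± 0.20), and Angpt1, a ligand of Tie2 made by HSCs and megakaryocytes, was apart below (-0.68 ± 0.20, edgeR adjusted p = 0.50). The proteoglycan gene Srgn overlapped (-0.15 ± 0.56).

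Among 19 tested signalling genes the median was 0.30. The ATP receptor P2rx1 (0.90 ± 0.30), the cyclooxygenase gene Ptgs1 (0.62 ± 0.22) and Gng11 (0.30 ± 0.23) were apart above WT, and the adaptor Lat (-1.40 ± 0.39, edgeR adjusted p = 0.43) and the thrombin receptor gene F2rl3 (-0.47 ± 0.23, edgeR adjusted p = 0.92) were apart below. Fermt3, which activates platelet integrins, overlapped (-0.08 ± 0.18).

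Among 8 tested cytoskeletal genes the median was 0.41, with Tln1 (0.53 ± 0.17) and Bin2 (0.47 ± 0.18) apart above WT and Cavin2, listed as Sdpr, apart below (-0.87 ± 0.46). Among 14 transcription factors the median was 0.17, with Mef2c (0.59 ± 0.22) apart above and Nfe2 (-0.14 ± 0.17) apart below. Lyl1 (0.39 ± 0.20) and Fli1 (0.26 ± 0.19) overlapped. Gata1, which drives both megakaryocyte and red cell genes, overlapped at 4.92, 21.8 and 13.3 normalised CPM in WT and 5.88, 5.10 and 9.31 in KO (-0.98 ± 0.71, edgeR adjusted p = 0.99).

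Of 29 erythroid genes with a row, 14 were tested and 0 were called by edgeR or DESeq2, with 0 higher and 2 lower at an unadjusted p under 0.05 (5.71% of all tested genes in either direction). Their median was -0.32, with 3 estimates above 0 and 11 below, and the KO libraries were below WT for 3 genes, against 6.15% of all tested genes. Like Icam4 in this were Epor, the erythropoietin receptor (-2.28 ± 0.66, edgeR adjusted p = 0.48), the water channel gene Aqp1 (-1.15 ± 0.42) and Rhag (-0.84 ± 0.70). Car2 and Hbb-bt, the most abundant, overlapped. Of 16 paralogs and partners of the 10 genes, 10 were tested and 0 were called by edgeR or DESeq2, 0 being higher and 2 lower at an unadjusted p under 0.05 (5.71% of all tested genes in either direction), with a median of 0.12.

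**Figure D5:**
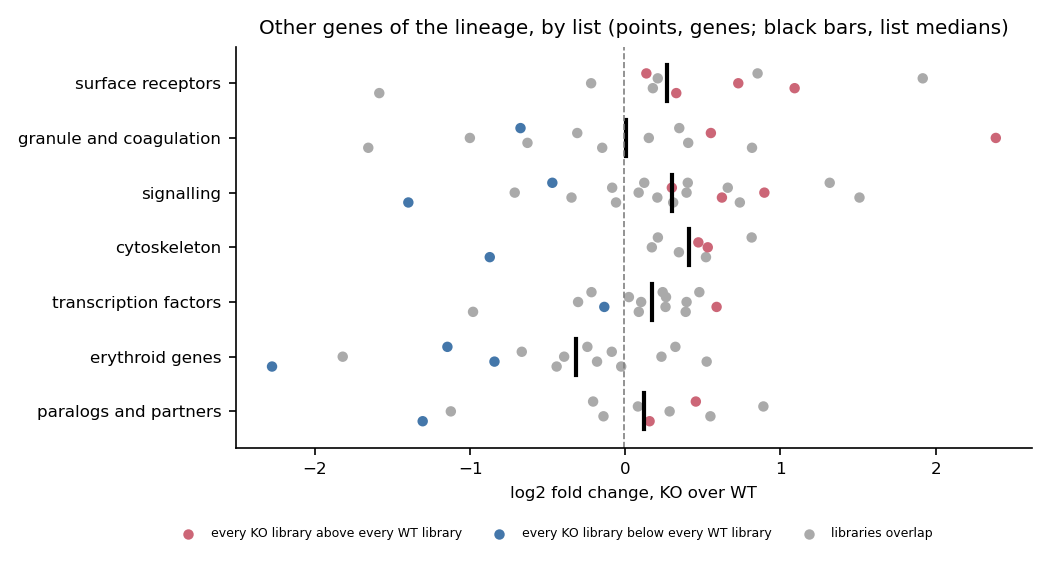
Log2 fold change of KO over WT (horizontal axis) for the tested genes of 7 lists; each point is a gene, red where every KO library is above every WT library, blue where every KO library is below and grey where they overlap, with black bars at the list medians and a dashed line at the median of all tested genes. The list medians run from -0.32 for erythroid genes to 0.41 for cytoskeletal genes, and each list spans 0.

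Markers of other cells were read beside these values. The 8 markers of mature platelets summed to 65.2 to 90.6 CPM in WT and 108 to 139.6 CPM in KO, the direction of Selp, Gp9 and Rgs18. Of these markers 5 of 8 lay above the floor in each group, Ppbp, Itgb3 and Nrgn made up most of the sum, and Gp6, Clec1b and Myl9 were at 0 throughout. Tubb1, a defining tubulin of platelets, had 5, 0 and 0 counts in WT and 9, 0 and 17 in KO. Treml1 went against the sum, with 36, 58 and 0 counts in WT and 14, 11 and 0 in KO (log2 fold change -1.59 ± 1.54), and its libraries overlapped. The libraries of Nrgn overlapped too. The 6 red cell markers summed to 25.4 to 50.4 CPM in WT and 26 to 56.3 CPM in KO, overlapping and without the direction of Icam4 or Slc14a1. The part of mature platelets and red cells in the values of Selp, Gp9, Rgs18, Icam4 and Slc14a1 was not tested.

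The 12 skeletal muscle markers summed to 140.5 to 347 CPM in WT and 7.50 to 13.8 CPM in KO, 12 and 5 of them above the floor, so they were lower in KO as Vwf and Icam4 were. Muscle genes are not known as genes of HSCs, and their part in the values of the 10 genes was not tested. The 9 granulocyte markers summed to 2.95 to 13.9 CPM in WT and 3.28 to 225 CPM in KO, with the top value in KO replicate 3. Without that library the Selp log2 fold change was 0.84. Of the genes behind the sort, the 6 markers summed to 1486 to 1853 CPM in WT and 1377 to 1819 CPM in KO, and of the markers that the sort gated out as proteins, Cd48 had at most 28 counts in any library. The other, Cd34, had 1109 to 2930 counts, and its normalised level was higher in every KO library (384 to 519.7 CPM) than in any WT library (296 to 360.1 CPM), the direction of Selp, Rgs18, Slc14a1 and Gp9. Ly6a and Kit, which the sort selected for, went the other way. Each was lower in every KO library than in any WT library (log2 fold change -0.78 ± 0.27 and -0.38 ± 0.18, edgeR adjusted p = 0.70 and 0.91), the direction of Vwf and Icam4. Slamf1 and Ptprc overlapped. The part of these sort markers in the values of the 10 genes was not tested. The 8 HSC identity markers, all detected, summed to 1541 to 2013 CPM in WT and 2002 to 2114 CPM in KO. Within this sum Hlf was lower in every KO library than in any WT library (-0.81 ± 0.25, edgeR adjusted p = 0.53). Mecom was higher in every KO library (0.61 ± 0.23, edgeR adjusted p = 0.77), and the others overlapped.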

How the data were processed

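Bulk RNA libraries of sorted HSCs were analysed in 3 WT and 3 KO samples. The labels give SMART-Seq amplified cDNA, whereas the paper's methods name a TruSeq RNA kit for the libraries. The authors deposited raw read counts per gene and FPKM values, which were checked to be the same counts scaled by the length of each gene and the total of each library. The submitters' processing notes name TopHat, HTSeq and build mm10. The annotation release and strand setting are not given in the sources used here.

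Counts were tested with edgeR 4.0.16 (R 4.3.3; filterByExpr, TMM, robust quasi-likelihood fit on group, Benjamini-Hochberg adjustment over all 12513 tested genes), with DESeq2 1.42.0 and limma 3.58.1 on log2 FPKM as alternatives, after tests on simulated data. Totals of 3537269 to 8131344 counts set the precision. Coordinates came from GENCODE M21, which held 34267 of the 34745 identifiers. No RefSeq window was at hand for Vwf, Clu and Rgs18, and Slc14a1 was left out of the motif search.

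The 10 genes and all lists were chosen with earlier results of these data known. Named from the lists were a few close relatives whatever their values, the genes of a list past the adjusted threshold, up to 3 genes per list whose groups were apart (mean count of 20 or more, by size of change) and the 2 genes of highest FPKM. From the cell type markers, the most abundant and the defining ones were named. Cldn5, Cd34, Ly6a, Kit, Slamf1, Ptprc, Treml1, Robo4, Kdr, Plvap, Flt1, Stab2, Ptprb, Hlf, Mecom and F2rl3 were named after their values were seen. Some genes that this rule names are not reported here.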

Additional observations from a re-analysis of the deposited data

How the results depend on the processing

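Across all genes, the 9 calls of edgeR became 120 with DESeq2, 10 with upper-quartile scaling, 13 without the filter on low counts and 7 with at least 10 counts in every library. With limma they became 15 on log2(FPKM + 1), 28 on log2(FPKM + 0.1) and 18 on log2(FPKM + 1) without a filter. They ranged from 5 (without WT replicate 1) to 11 with each library left out. The related platelet-lineage, erythroid and paralog lists had 0 calls in each of these settings. Of the 10 genes, none was called in any of them except the 3 called by DESeq2. The cause of these changes was not tested.

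Libraries share replicate numbers across groups, so the numbers were checked for pairing. The correlation of same-numbered deviations from the group means was 0.163, 0.0315 and 0.162, not over 0.1 for every pair, and WT replicate 2 correlated best with KO replicate 1 (0.0323). With the replicate block edgeR called 5 genes, all lower in KO and all among the 9, and 0 of the 10 platelet-lineage genes.

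Gp5 kept its negative sign in 9 of 14 settings and Pf4 in 13 of 14, and the other genes kept theirs in all settings run (14 for 7 of them, 13 for Gp1bb, which had too few counts for the filter of 10 in every library). Levels per length with the M21 exonic length, chosen after seeing the data, kept 8 of 10 ranks of the mean over all 6 libraries, but 3 of 10 within WT and 2 of 10 within KO. Split by replicate as for Selp, the log2 ratios of KO to WT for Gp1bb, Gp5, Pf4 and Clu changed sign. Between the means of replicates 1 and 2 they were -0.20, -0.67, 0.05 and -1.61, in that order. Between the replicate 3 libraries they were 1.97, 1.58, -0.60 and 0.01. The other genes kept their sign in this split. Low counts limit Gp1bb (6 to 37 counts) and Clu (13 to 327 counts).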
